A study of Mus musculus with 10 samples.

Results

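The genes described here are 35 genes of the endoplasmic reticulum (ER), the compartment in which secreted and membrane proteins are folded. They were chosen by name, as targets of the ATF6 and XBP1 arms of the unfolded protein response, and all 35 were found among the 53379 genes counted in the series. The list holds chaperones, disulphide isomerases, co-chaperones of the HSP70 Hspa5, the response's own sensors and transcription factor, the ER-associated degradation (ERAD) machinery and the translocon. The question for each gene was whether its level differed between cKO-Cdkn1c-MADM-7 cortex, in which the cell cycle inhibitor gene Cdkn1c is deleted, and control MADM-7 cortex. A threshold of 0.05 on the edgeR p adjusted over 11551 genes is called the test below.

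Each library was made by Smart-Seq2, a full-length cDNA method, from 400 sorted cells of the neocortex of a single embryo at embryonic day 16. Controls (7 embryos) carried the MADM-7-GT and MADM-7-TG cassettes on chromosome 7 and Emx1-Cre, and cKO embryos (3) carried the same alleles plus Cdkn1c-flox on both chromosomes. MADM (mosaic analysis with double markers) labels the cells in which Cre recombined the cassettes, and GFP+, tdT+ and double-positive cells were sorted into the same tube. Emx1-Cre acts in cortical radial glial progenitors, so both groups hold their descendants, which are mainly projection neurons with some progenitors, and in both groups GFP+ and tdT+ single-coloured cells carry uniparental disomy, with both copies of chromosome 7 from the same parent. None of the 35 genes lies on chromosome 7. The mice were on a mixed C57BL/6J, CD1 background, given as CD1 in the sample labels.

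When unfolded proteins accumulate in the ER, the chaperone Hspa5 (BiP) leaves the lumenal parts of 3 sensors. Atf6 is then cut in the Golgi to release a transcription factor, Ern1 (IRE1) splices the Xbp1 mRNA so that an active XBP1 protein is made, and PERK phosphorylates eIF2α, which favours translation of ATF4. Other kinases phosphorylate eIF2α too, so ATF4 targets do not report on PERK alone. ATF6 and XBP1 raise chaperones, ERAD components and the translocon, whereas ATF4 raises genes of amino acid supply and genes such as Ddit3 and Chac1. Gene counts do not separate spliced from unspliced Xbp1 and say nothing of the cutting of ATF6 protein.

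ATF6 and XBP1 act through the ER stress response element (ERSE), spelled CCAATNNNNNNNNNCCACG, which joins CCAAT to CCACG across a spacer of 9 bases. RefSeq promoter windows (GRCm38.p6), from 250 bases before to 50 bases after each start of transcription, were matched for 29 of the 35 genes. The exact ERSE was found on either strand in 9 of these 29 (31.0%) and in 37 of 27025 genes with a window (0.137%). A shorter form, ERSE-II (ATTGG and CCACG with 1 base between them), was found in Herpud1 and Dnajb11 and in 0.0444% of all genes, and the site TGACGTGG, known as the UPRE, was found in no member against 0.714% of all genes. The genes were listed as ATF6 and XBP1 targets, so these shares set a list of known targets beside all genes, and a match is a string of letters, not a measured site. The matches are shown because they mark the members that share the exact string, with CCAAT and CCACG in capitals, read 5′ to 3′ on the strand that holds CCAAT before CCACG.
Hspa5 (chr2:34772025-34772043, plus strand): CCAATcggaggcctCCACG
Hsp90b1, upstream site (chr10:86705638-86705656, minus strand): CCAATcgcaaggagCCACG
Hsp90b1, downstream site (chr10:86705533-86705551, plus strand): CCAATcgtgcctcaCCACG
Calr (chr8:84847075-84847093, plus strand): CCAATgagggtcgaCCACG
Canx (chr11:50325800-50325818, minus strand): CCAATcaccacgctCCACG
Creld2 (chr15:88819520-88819538, minus strand): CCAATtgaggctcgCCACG
Pdia6 (chr12:17266491-17266509, plus strand): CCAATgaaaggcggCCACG
Dnajc3 (chr14:118937827-118937845, plus strand): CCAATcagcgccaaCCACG
Syvn1 (chr19:6046532-6046550, plus strand): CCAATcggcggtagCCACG
Derl3 (chr10:75893242-75893260, minus strand): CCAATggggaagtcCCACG

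Herpud1 and Syvn1 were the members with an unadjusted p under the threshold, and their promoters are printed for that reason, as the 250 bases before the RefSeq start on the strand of the gene. In Herpud1 the capitals mark, in order, a match to the C/EBP-ATF response element (CARE, TGATGNAAN, the kind of site that ATF4 binds), which lies on the opposite strand, and the ERSE-II. In Syvn1 they mark the ERSE.
Herpud1 (chr8:94386179-94386428, plus strand): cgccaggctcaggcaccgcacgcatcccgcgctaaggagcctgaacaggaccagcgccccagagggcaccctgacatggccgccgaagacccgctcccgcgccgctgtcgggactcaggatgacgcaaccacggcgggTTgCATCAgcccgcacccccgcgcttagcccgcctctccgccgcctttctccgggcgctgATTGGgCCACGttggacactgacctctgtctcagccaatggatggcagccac
Syvn1 (chr19:6046326-6046575, plus strand): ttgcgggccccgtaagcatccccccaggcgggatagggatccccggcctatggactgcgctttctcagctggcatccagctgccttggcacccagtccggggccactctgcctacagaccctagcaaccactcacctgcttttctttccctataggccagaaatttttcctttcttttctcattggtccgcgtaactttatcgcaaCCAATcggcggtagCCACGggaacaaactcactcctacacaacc

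The CARE was searched after the values had been seen. Of the 29 members with a window, Herpud1 was the 1 that held it (3.45%), against 4.50% of all genes and 2.43% of genes tested. Of 53 other pathway genes with a window, 5 held it (9.43%). Among 5 genes of the list of PERK arm and ATF4 targets whose matches were listed by place, Chac1, Asns and Trib3 held it as shown, and Ddit3 and Atf4 did not.
Chac1 (chr2:119351048-119351056, minus strand): TGATGcAAc
Asns (chr6:7693224-7693232, minus strand): TGATGaAAc
Trib3 (chr2:152344039-152344047, plus strand): TGATGtAAa

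**Figure D1:**
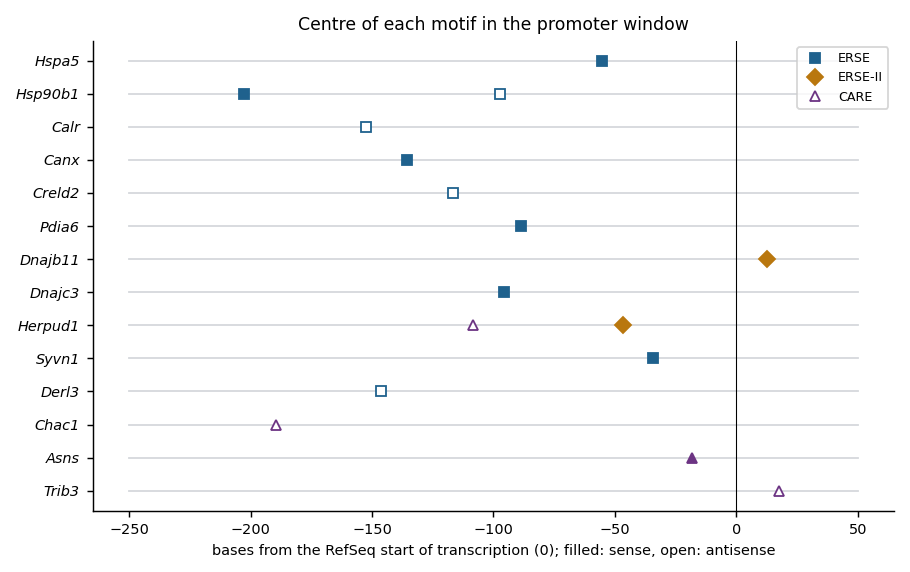
Centre of each ERSE, ERSE-II and CARE match in bases from the RefSeq start of transcription (x axis), for the 11 members with a match and for Chac1, Asns and Trib3 (y axis). Filled symbols are matches on the strand of the gene and open symbols on the other strand, and grey lines span the window searched. All ERSE matches lie before the start, between -202.5 (Hsp90b1) and -34.5 (Syvn1).

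The libraries held between 1738220 and 3362487 reads counted on genes. Cdkn1c, the targeted gene (chr7:143458339-143461050), averaged 95.9 ± 20.1 CPM (reads scaled to a common library total after TMM normalization; SD over 7 controls) and 7.46 ± 3.43 in the 3 cKO libraries, a log2 fold change of -3.66 (SE 0.38, edgeR adjusted p = 3.68e-06). Over all genes tested, 364 passed the test, 262 higher and 102 lower in cKO, which is 3.15%. Among cell type markers, all 4 for Cajal-Retzius cells passed the test and were higher in cKO (summed CPM 522 to 622 against 16.3 to 159). Of 6 for projection neurons, 3 passed, all lower in cKO (sum 1945 to 2166 against 3131 to 3824), and over the list 4 estimates were below and 2 above 0. Of 6 for interneurons, 1 passed (Dlx2, higher), all 6 estimates were above 0 with a median log2 fold change of 1.21, and the sum was 36.6 to 103 against 13.6 to 51.8 CPM. None of 7 radial glial markers passed (median 0.11). None of 3 intermediate progenitor markers passed either, with a median of -0.68, an unadjusted p under 0.05 for 2 of them in edgeR and a sum of 258 to 410 against 274 to 596 CPM. The 4 choroid plexus markers summed to 7.49 to 58.6 CPM in cKO and 0 to 22.5 in controls. Ttr, the 1 of them that could be tested, had a log2 fold change of 2.52 (adjusted p = 0.0753), and Kl was at 0 in all libraries. The 5 meningeal fibroblast markers summed to 23.9 to 44.1 CPM against 9.40 to 30.0, and Dcn, the 1 tested, was at 0.94 (adjusted p = 0.137). Endothelial and microglial markers were all too low to test, at sums of 1.01 to 17.3 against 0 to 4.71 CPM and of 0.79 to 27.2 against 0 to 4.68 CPM. Erythroid markers summed to 20.4 to 2301 CPM in cKO and 0.36 to 1817 in control libraries. The libraries also fell into 2 sets by the share of reads outside annotated exons. One set (1 cKO and 4 control) ran from 5.47 to 8.64% and the other (2 cKO and 3 control) from 12.8 to 16.7%. The part of these differences in the values below was not tested, and in sorted bulk cells, fewer cells of a type and less RNA per cell cannot be told apart.

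As a group, the ER genes differed between genotypes by less than the spread of the embryos. Their CPM summed to 4337, 3939 and 4714 in the 3 cKO libraries and to between 3906 and 4713 in the controls (median 4351), so the groups overlapped over nearly their whole range. The means were 4330 ± 388 for cKO (SD, n = 3) and 4344 ± 274 for controls (SD, n = 7), 0.433% and 0.434% of normalized reads. Of the 35 genes, 33 had the mean of at least 10 reads needed for testing. None of the 33 passed the test in edgeR, which called 3.15% of all genes, or in limma-voom, which called 2.57%. In DESeq2 1 of 33 (Herpud1) passed, against 4.42% of all genes. With an unadjusted p under 0.05 there were 2 of 33 members (6.06%) and 16.4% of all genes. For 1 of 33 members all 3 cKO values were beyond all 7 control values, against 6.00% of all genes.

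The estimates were tight enough to bound most members. Fold changes ran from -0.65 to 0.63 on the log2 scale, 15 above and 18 below 0, with a median of -0.01 against 0.01 over all genes tested. The standard error had a median of 0.21 over members and 0.27 over all genes. For 31 of the 33 (93.9%) the 95% interval excluded a 2-fold change in either direction, which held for 62.8% of all genes. The exceptions were Hyou1 (interval -1.08 to 0.45) and Syvn1 (-1.15 to -0.15). Of the other pathway genes, 59 were tested outside the list of PERK arm and ATF4 targets. Their median standard error was 0.21, and 88.1% excluded a 2-fold change. Members and all genes were not matched for level.

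**Figure D2:**
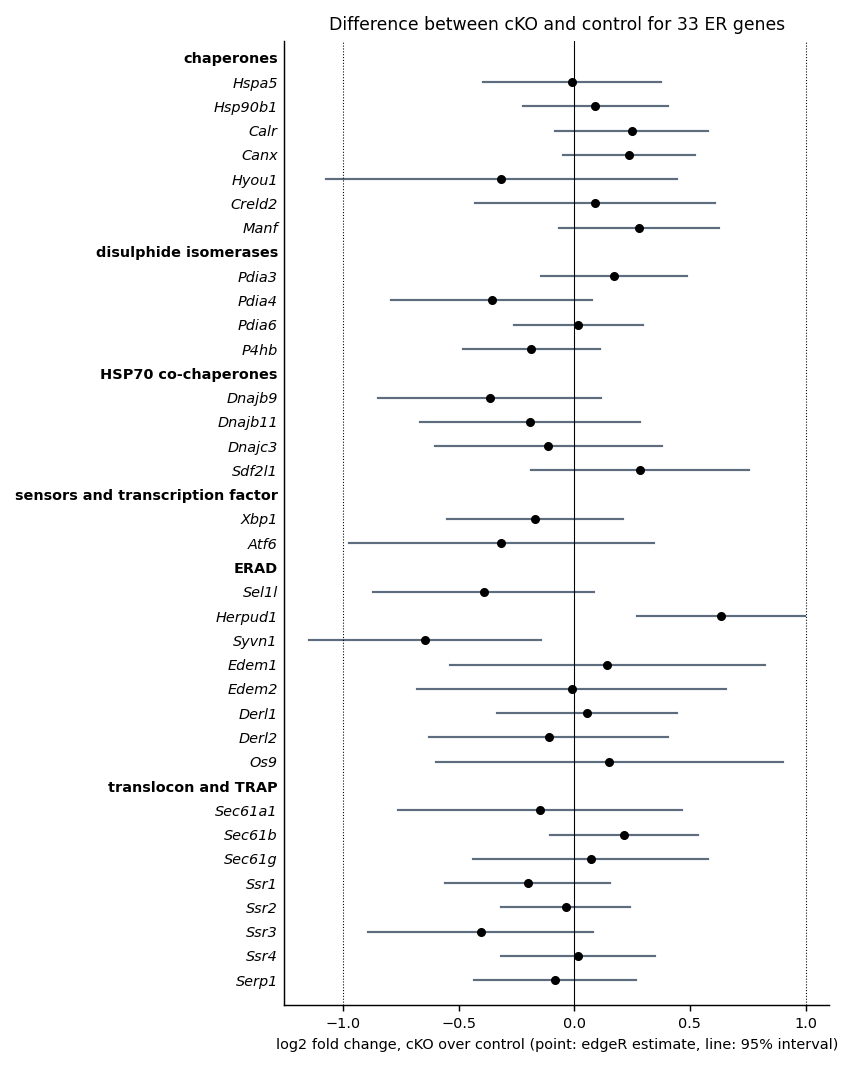
Log2 fold change of cKO over control (x axis) for the 33 members tested (y axis, grouped by role). Points are edgeR estimates, lines are 95% intervals and dotted lines mark a 2-fold change. The Herpud1 and Syvn1 intervals exclude 0 before adjustment, and those of the other 31 members include it.

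Per kilobase of annotated exon, the control libraries showed a wide order of levels. Ssr2, a subunit of the translocon-associated protein complex (TRAP), stood highest at 157 ± 13.1 CPM per kb (SD, n = 7). It was followed by the isomerase Pdia6 (107 ± 11.4), the translocon subunit Sec61b (98.6 ± 10.6), Hspa5 (97.9 ± 18.5) and the isomerase P4hb (92.4 ± 9.39), and among these 4 the neighbours lay within the spread of each other. The sensors were lowest, Ern1 at 0.35 ± 0.07 and Atf6 at 2.21 ± 0.61, whereas Xbp1, the mRNA that Ern1 splices, reached 74.0 ± 12.0. The annotated exons are the union of all transcripts, so a gene with long unused exons is placed too low. In cKO libraries Ssr2 was again highest (153 CPM per kb) and Ern1 lowest (0.50).

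Hspa5, the ER HSP70 and the usual readout of ER stress, had 329, 362 and 546 CPM in the cKO libraries. Controls ran from 291 to 513 with a median of 408. The third cKO library was above every control and the other two were below the control median. The log2 fold change was -0.01 (SE 0.18, 95% interval -0.40 to 0.38, edgeR adjusted p = 0.985), with an average fold of 0.99 and bounds of 0.76 and 1.30.

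The other chaperones also overlapped between groups. Hsp90b1, the ER HSP90, had 229, 240 and 279 CPM in cKO and 170 to 263 in controls (log2 fold change 0.09, SE 0.15). Calr and Canx, the lectin chaperones of glycoproteins, differed by 0.25 (SE 0.16) and 0.24 (SE 0.14). For Calr, 365 CPM in cKO replicate 1 stood above all other libraries, whereas the remaining cKO libraries (223 and 233) lay among the controls (201 to 250), and without that library the log2 fold change was -0.02. For Canx, cKO replicate 2 had 295 CPM and the others 250 and 246, against 187 to 257 in controls. Manf, a secreted protein of stressed cells, was at 116 to 128 CPM in cKO and 86.0 to 129 in controls (0.28, SE 0.16, adjusted p = 0.422). Creld2 was at 34.7 to 73.2 CPM against 31.8 to 66.9 (0.09, SE 0.25). Hyou1, the large HSP70 that exchanges nucleotide on Hspa5, was low and scattered in cKO, at 12.8, 38.6 and 9.33 CPM against 18.5 to 34.9, and its log2 fold change was -0.32 (SE 0.36). That value was -1.17 without cKO replicate 2 (unadjusted p = 0.0043, adjusted p = 0.0793), -0.05 without cKO replicate 1 and -0.0003 without cKO replicate 3.

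The disulphide isomerases form and rearrange the cysteine bonds of folding proteins. Pdia6 had 446, 348 and 422 CPM in cKO and 342 to 474 in controls, a log2 fold change of 0.02 (SE 0.13) that was among the most precise of the list. Pdia3, which works with Calr and Canx, was at 0.17 (SE 0.15) and P4hb at -0.19 (SE 0.14). Pdia4 was at 89.7, 121 and 160 CPM against 109 to 202, with 1 cKO library below every control, and its log2 fold change was -0.36 (SE 0.21, adjusted p = 0.422). Without cKO replicate 1 the Pdia4 value was -0.17, and without cKO replicate 3 it was -0.58. None of the 4 passed the test.

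The co-chaperones of Hspa5 had a median log2 fold change of -0.15, with 1 above and 3 below 0. Dnajb9 (ERdj4), among the most responsive XBP1 targets, was at 29.7, 42.2 and 61.9 CPM in cKO and 41.0 to 66.9 in controls (-0.37, SE 0.23, adjusted p = 0.463), and its value was -0.13 without cKO replicate 1 and -0.67 without cKO replicate 3. Dnajb11 was at -0.19 (SE 0.22) and Dnajc3, known also as an inhibitor of PERK, at -0.11 (SE 0.23). Sdf2l1, a partner of the ER J-proteins, was at 33.9 to 69.8 CPM in cKO and 32.4 to 53.6 in controls (0.28, SE 0.22), and its value was 0.01 without cKO replicate 1 and 0.51 without cKO replicate 2. All 4 overlapped.

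Xbp1 mRNA, itself an ATF6 target, had 217, 151 and 273 CPM in cKO libraries and 183 to 287 in controls. Its log2 fold change was -0.17 (SE 0.18, interval -0.55 to 0.21), and cKO replicate 2 was below every control. The log2 fold change was 0.02 without cKO replicate 2 and -0.38 without cKO replicate 3. Atf6 was at 10.6 to 21.7 CPM in cKO and 13.6 to 28.0 in controls (-0.31, SE 0.31). Its value was -0.58 without cKO replicate 2 and -0.11 without cKO replicate 3. Ern1 averaged 8.80 reads per library and was not tested. Its levels were 6.75, 1.58 and 3.82 CPM in cKO and 2.14 to 3.89 in controls.

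**Figure D3:**
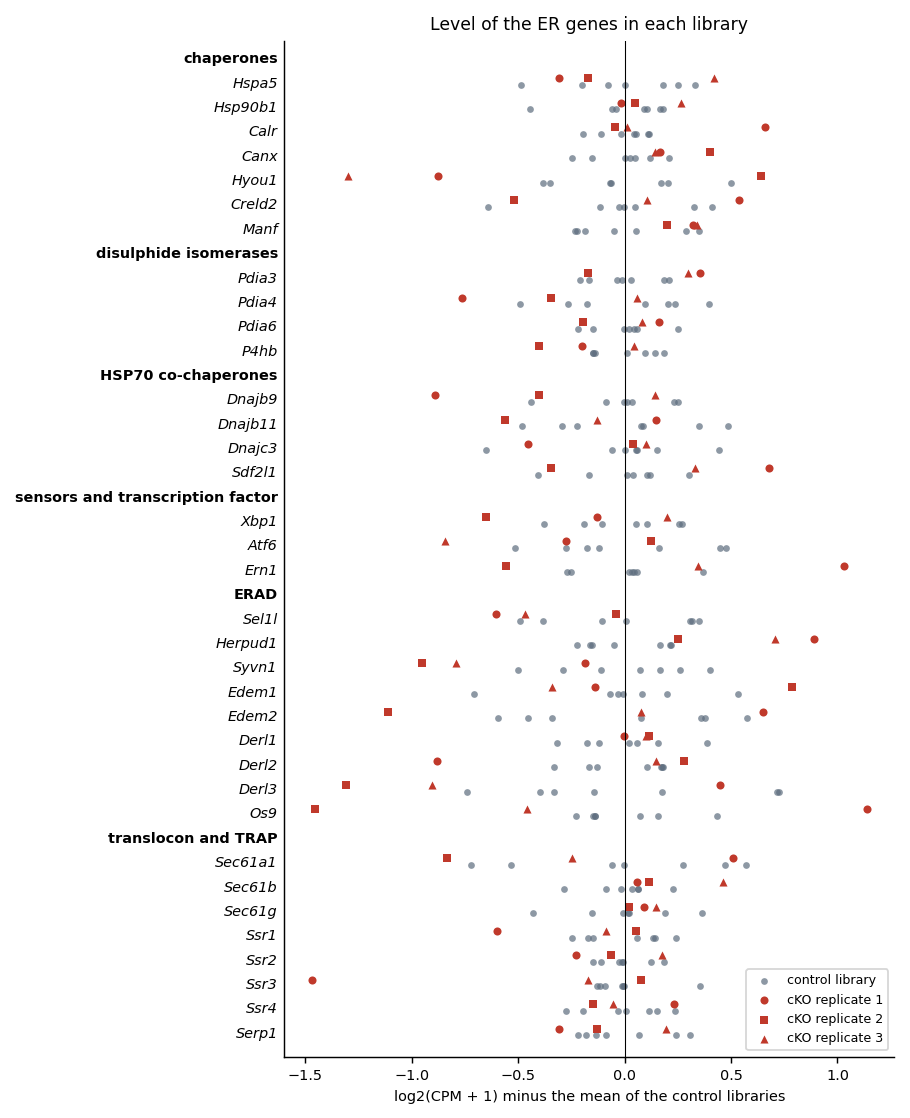
Level of each of the 35 members in each library (x axis, log2(CPM + 1) minus the mean of the control libraries), grouped by role. Grey circles are the 7 control libraries and red symbols the 3 cKO libraries. The red symbols fall on both sides of 0 for most members, and all 3 lie beyond the controls for Herpud1 alone.

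The ERAD machinery held both members at the ends of the list. Herpud1 (chr8:94386438-94395377), an ER membrane protein that brings the degradation complex together, had 152, 97.3 and 134 CPM in cKO libraries. Controls ran from 69.9 to 95.1 CPM with a median of 78.9. The groups did not overlap, although the lowest cKO library was 97.3 and the highest control 95.1. The log2 fold change was 0.63 (SE 0.17, interval 0.27 to 0.996), 1.55-fold on average, with an unadjusted p of 0.00167 and an edgeR adjusted p of 0.0512. The adjusted p ranged from 0.0167 to 0.589 over 18 alternative settings, and 0.019 was the value in DESeq2. Without cKO replicate 1 the log2 fold change was 0.48 (adjusted p = 0.193), without cKO replicate 2 it was 0.78 (0.0167) and without cKO replicate 3 it was 0.60 (0.13). Within the sets of libraries with fewer and with more reads outside annotated exons, the log2 ratio of mean CPM was 0.60 and 0.75. The signs of that ratio were opposite in the 2 sets for 19 of the 33 members, among them Hspa5 (0.38 and -0.24), Xbp1 (0.27 and -0.50), Dnajb9 (0.17 and -0.70), Os9 (-0.57 and 0.46) and Sec61a1 (-0.60 and 0.40), and were the same for 14. The first set holds a single cKO library.

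Syvn1 (Hrd1; chr19:6046576-6053712), the ubiquitin ligase at the core of the same complex, had 51.6, 29.9 and 33.5 CPM in cKO libraries. Controls ran from 41.3 to 78.1 CPM with a median of 61.9, so that 2 cKO libraries were below every control and the other was among them. The log2 fold change was -0.65 (SE 0.24, unadjusted p = 0.0138, adjusted p = 0.165), and the adjusted p ranged from 0.0659 to 0.396 over the alternatives. Within the same 2 sets the log2 ratio was -0.92 and -0.44.

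Sel1l, the adaptor that binds Syvn1, was at 43.2, 64.2 and 47.5 CPM in cKO and 46.8 to 84.5 in controls, a log2 fold change of -0.39 (SE 0.23, adjusted p = 0.419). Os9, a lectin that hands glycoproteins to that complex, was at 110, 17.3 and 35.6 CPM in cKO, so that its highest and lowest libraries were both cKO, against 41.9 to 66.9 in controls. Its log2 fold change of 0.15 (SE 0.36) moved between -0.94 and 0.56 as single libraries were left out. Edem2, a mannosidase-like protein of glycoprotein disposal, was also scattered in cKO (73.2, 20.9 and 48.8 CPM against 30.3 to 69.4), with a log2 fold change of -0.01 (SE 0.32) that was -0.50 without cKO replicate 1 and 0.33 without cKO replicate 2. Edem1 was at 0.14 (SE 0.32), and at -0.31 without cKO replicate 2. The derlins, which form the exit channel, were at 0.06 (Derl1, SE 0.19) and -0.11 (Derl2, SE 0.25). Derl3 averaged 6.80 reads and was not tested, with 3.71, 0.39 and 0.85 CPM in cKO and 1.07 to 4.71 in controls.

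The translocon and TRAP, through which new proteins enter the ER, did not pass the test for any of 8 genes, and their median log2 fold change was -0.06. Sec61b and Sec61g, the small subunits of the channel, were at 0.22 (SE 0.15) and 0.07 (SE 0.24). Sec61a1, the channel itself, was at 112, 43.7 and 66.2 CPM in cKO and 47.4 to 118 in controls (-0.15, SE 0.29). That value was -0.60 without cKO replicate 1, 0.11 without cKO replicate 2 and -0.07 with the strand columns summed. When the columns counted separately by strand were summed, Sec61a1 had 1.53 times as many reads, Manf 1.24 and Hsp90b1 1.13, since reads shared with an overlapping gene are left out of the unstranded column. For Ssr3, cKO replicate 1 had 63.7 CPM and the other cKO libraries 188 and 158, against 163 to 228 in controls. Its log2 fold change was -0.40 (SE 0.23, adjusted p = 0.418) with all libraries and -0.05 without cKO replicate 1. Ssr1, Ssr2 and Ssr4 were at -0.20, -0.04 and 0.02, and Serp1, which stabilises new membrane proteins at the channel, was at -0.08 (SE 0.17).

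The cKO libraries also disagreed with each other from gene to gene. Of the 33 members tested, cKO replicate 1 was the highest of the 10 libraries in 7 and the lowest in 8, cKO replicate 2 in 4 and 7, and cKO replicate 3 in 3 and 2. With each library left out in turn, the log2 fold change spanned 0 for 16 of the 33 and kept its sign for 17. The largest move came from leaving out a cKO library in 30 of the 33, with a median of 0.20 and a maximum of 1.09 (Os9). With 3 cKO and 7 control libraries, most of the largest moves would come from cKO libraries even if both groups varied equally. The control libraries were the highest in 0 to 5 members and the lowest in 0 to 6. Over all the members together the libraries were closer, with a median log2 level relative to the control mean of -0.02, -0.06 and 0.10 in cKO and -0.15 to 0.15 in controls. Between control embryos a member varied by 16.2% (median coefficient of variation), against 23.2% over all genes tested. For the 59 other pathway genes tested outside the list of PERK arm and ATF4 targets it was 16.1%.

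The 8 members with an exact ERSE match that were tested had a median log2 fold change of 0.05, with 5 above and 3 below 0 and a range from -0.65 (Syvn1) to 0.25 (Calr). The 19 with a window that holds no exact ERSE match had a median of -0.08, and the 6 with no promoter entry had -0.09. Herpud1 and Dnajb11, which share the ERSE-II, were at 0.63 and -0.19.

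Of 71 further genes of the same pathway, 67 could be tested, and 2 passed, both higher in cKO (3.15% of all genes passed in either direction). Both are on the list of PERK arm and ATF4 targets. Chac1, which degrades glutathione, had 118, 48.5 and 49.6 CPM in cKO and 1.73 to 5.33 in controls, a log2 fold change of 4.21 (SE 0.43, adjusted p = 3.35e-06). Asns, which makes asparagine, had 189, 175 and 263 CPM against 59.0 to 94.5 (1.51, SE 0.18, adjusted p = 8.33e-05). In both the groups did not overlap.

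Other genes of that list did not pass the test. Ddit3 (CHOP), a transcription factor of prolonged stress, had 44.2, 30.3 and 63.2 CPM in cKO and 23.5 to 36.0 in controls (0.73, SE 0.23, unadjusted p = 0.00625, adjusted p = 0.109). Atf4 mRNA had 334, 255 and 269 CPM against 139 to 286 (0.59, SE 0.21, adjusted p = 0.143). Trib3, a pseudokinase induced by ATF4, was too low to test, with 21.9, 2.36 and 1.70 CPM in cKO, 1.09 in 1 control and 0 in the other 6. Summed over the 9 genes of this list, Asns and Chac1 included, cKO libraries had 932, 762 and 923 CPM and controls 473 to 620. Without this list, 0 of 59 pathway genes passed in edgeR and 8 had an unadjusted p under 0.05 (13.6%, against 16.4% of all genes). DESeq2 called 1 of the 59 and limma-voom 0, against 4.42% and 2.57% of all genes.

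**Figure D4:**
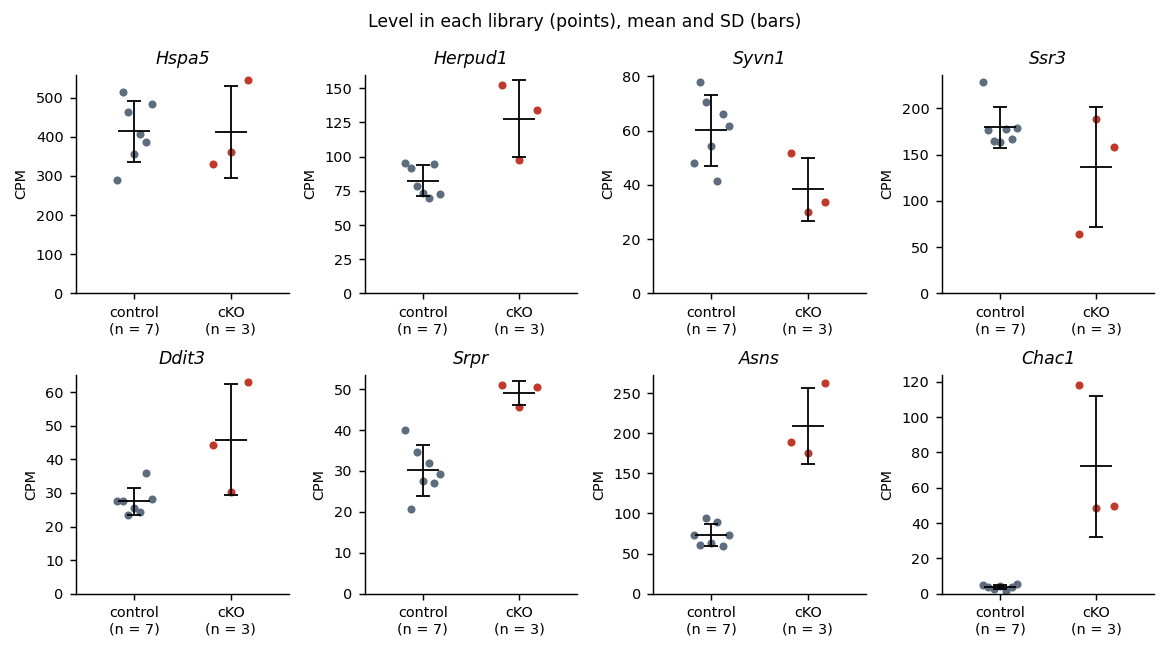
CPM in each library (y axis, from 0) for 4 members (Hspa5, Herpud1, Syvn1, Ssr3) and 4 other genes of the pathway (Ddit3, Srpr, Asns, Chac1). Grey points are controls (n = 7), red points are cKO (n = 3), and bars are the mean and SD. Groups do not overlap for Herpud1, Srpr, Asns and Chac1, and the gap is narrow for Herpud1 (95.1 to 97.3 CPM).

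Among the machinery that delivers and modifies proteins at the translocon, Srpr, the receptor of the signal recognition particle, had 50.9, 45.7 and 50.5 CPM in cKO and 20.7 to 39.9 in controls (0.70, SE 0.21, edgeR adjusted p = 0.081, DESeq2 0.039). None of the other 11 translocation partners passed in either tool, and Sec61a2, a second form of the channel, had the next smallest p (-0.26, SE 0.17, adjusted p = 0.504). The signal peptidase and oligosaccharyltransferase, which cut signal peptides and attach N-glycans, had 12 of 15 genes above 0 with a median of 0.21, and 4 with an unadjusted p under 0.05 (26.7%, against 16.4% of all genes), but none passed after adjustment. Their summed CPM was 2626, 2686 and 3115 in cKO and 2293 to 2575 in controls, without overlap. Krtcap2 (0.38, SE 0.14, adjusted p = 0.156) and Tusc3 (0.32, SE 0.13, adjusted p = 0.194) had the smallest p of that list.

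The remaining lists were mixed. Glycan trimming and oxidative folding had 7 of 14 genes above and 7 below 0, with the glucosidase II subunits Prkcsh at 0.45 (SE 0.22) and Ganab at -0.42 (SE 0.20), each with an adjusted p of 0.301. Further ERAD genes had 4 of 13 above 0 with a median of -0.10, and the segregase Vcp was at -0.29 (SE 0.18, adjusted p = 0.456). Of 5 other regulators tested, Wfs1 was at 1.23 (SE 0.55, adjusted p = 0.266) and Mbtps1, the protease that cuts Atf6, at -0.44 (SE 0.23, adjusted p = 0.352). None of these passed the test.

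**Figure D5:**
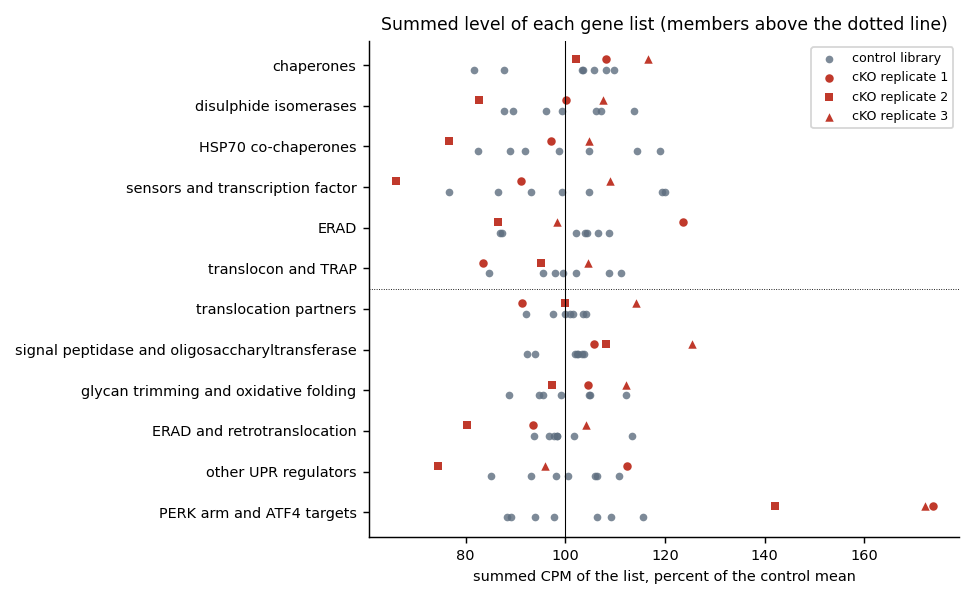
Summed CPM of each gene list in each library as percent of the control mean (x axis), for the 6 groups of members (above the dotted line) and the 6 lists of other pathway genes (below it). Grey circles are controls and red symbols are the 3 cKO libraries. All 3 cKO libraries lie above all 7 controls for the PERK arm and ATF4 targets, a list that includes Asns and Chac1. The same holds for the signal peptidase and oligosaccharyltransferase list, and the groups overlap for the other 10.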

How the data were processed

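The authors aligned reads to GRCm38 (mm10) with STAR 2.5.0c and deposited its read counts per gene for 3 cKO and 7 control libraries. The first count column, which ignores strand, was used because sense reads made up 50.3 to 50.5%. Reads on more than 1 gene are left out of it, so overlapping genes are counted too low. Symbols came from GENCODE M21 (50604 of 53379 identifiers matched with version, 2670 without, 105 not). The 11551 genes that averaged 10 or more reads were tested with edgeR 4.0.16 (TMM, quasi-likelihood, genotype alone) and the Benjamini-Hochberg adjustment. DESeq2 1.42.0, limma-voom (limma 3.58.1) and other settings were alternatives. Standard errors and 95% intervals came from the fitted coefficients and moderated variances. Tested on simulated counts of this comparison (11405 genes), edgeR called 49% of 98 genes changed 2-fold and 89.8% of 98 genes changed by 2 on the log2 scale, and 14 of its 150 calls (9.33%) were unchanged genes. Replicates are single embryos and no pair agreed within counting error (24 pairs, smallest chi-square per degree of freedom 4.69).

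The members and lists were chosen with earlier results of these data known. All members are named, with, of each pathway list, the genes past the threshold and the 2 with the smallest p, of which 1 gene is not reported here. Ddit3, Atf4 and Trib3 were named after their values were seen. Amplification was not corrected by molecular identifiers. The intervals reflect differences between libraries, in which embryo, cell sorting, amplification and read counts cannot be told apart.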

Additional observations from a re-analysis of the deposited data

Results flagged for a closer look

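The 7 control values of each tested member and of Cdkn1c, 34 groups in all, were searched for a library far from the others. Ssr3, a TRAP subunit, was flagged because control replicate 1 had 228 CPM and the next control 178, a gap of 0.768 of the range of the 7 values, where the critical value is 0.568. Chance flags about 1 in 20 such groups, so 1 of 34 is within what chance gives.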

How the results depend on the processing

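The number of members called was 0, and it was 1 (Herpud1) with DESeq2, with genes of a mean of at least 50 reads, with the percentage of reads outside annotated exons as a covariate and with the strand columns summed, and 0 to 1 (1 without cKO replicate 2) when 1 library was left out. Genes called numbered 364, with 194 at a mean of at least 50 reads, 961 with no filter, 213 with the replicate block and 271 to 424 without 1 library. Other pathway genes called numbered 2, with 4 under no filter and 2 to 3 without 1 library. The median member log2 fold change ran from -0.07 to 0.03 without 1 library and from -0.09 to 0.03 otherwise, and that of Cdkn1c from -4.07 to -3.37 and from -3.72 to -3.59. Of 593 member values over 18 alternatives, 44 in 16 members changed sign, none of them past the threshold (largest 0.25 as reported), and 544 kept their sign and side. Equal replicate numbers did not pair the embryos (correlation of deviations 0.04, -0.10 and -0.21), and no cKO library correlated best with its own number. With the replicate block, 0 members passed and Herpud1 had a log2 fold change of 0.52 (unadjusted p = 0.0733, adjusted p = 0.589). The causes were not tested. With 3 cKO embryos, 49% of 2-fold changes were called in simulated counts, for genes drawn at random from all those tested. Members had a smaller median standard error (0.21, against 0.27 over all genes), and the share for members alone was not simulated. Ern1, Derl3 and Trib3 were too low to test.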
